A study of Mus musculus with 16 samples.

Results

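Marker genes of the pigment epithelium and its melanosomes were followed across 16 arrays of mouse retina, each hybridised with 1 sample. There are 9 of them: Best1, Ttr, Mitf, Tyr, Tyrp1, Dct, Pmel, Mlana and Slc45a2. They were chosen by name, as every probe set annotated to exactly 1 of these symbols. Of 18193 genes with such a probe set on the array, the 9 had 18 probe sets. The retinas came from BALB/c mice of both sexes, 11 to 16 weeks old, in 6 groups of genotype and light dose. Retinas without Nxnl1 (Nxnl1-/-, written KO) were measured in triplicate after 50 and 2500 lux (n = 3 each) and on 2 arrays after 5000 lux. Nxnl1+/+ retinas (written WT) were measured on 2 arrays after 50 lux and on 3 after each higher dose. The product of Nxnl1 is a thioredoxin-like factor of rods that supports cone survival. All animals of both genotypes had been raised in cyclic light of 50 lux, were kept dark for 16 h, received 1 h of white fluorescent light at the dose of their group, and were killed after 24 h of darkness. The labels state that the pigment epithelium was removed from the neural retina before RNA was extracted. Whether the RNA on an array was from a single or several animals is not stated, so p-values measure the spread between these arrays.

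The retinal pigment epithelium is the single cell layer behind the photoreceptors. It recycles the visual chromophore, takes up shed outer segments and, in pigmented animals, holds melanin in melanosomes. Mitf is the basic helix-loop-helix factor that specifies this epithelium and melanocytes, and it binds E-box motifs, in particular the M-box, in the promoters of melanogenic genes. Tyr, Tyrp1 and Dct encode the enzymes of melanin synthesis. Pmel forms the fibrils on which melanin is laid down, Mlana and Slc45a2 encode melanosomal membrane proteins, Best1 an anion channel of the basal membrane, and Ttr the carrier of thyroxine and retinol-binding protein that this epithelium secretes. BALB/c mice are albino: a missense mutation inactivates tyrosinase, so the epithelium is formed but makes no melanin. Ttr is also made by the choroid plexus and the ciliary epithelium, and Mitf also by macrophages.

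The M-box is what the melanogenic genes share in sequence, and the promoter stretches are shown for that reason. RefSeq promoter windows on build GRCm38.p6, each 300 bases with 250 before the start of transcription and 50 after it, were at hand for 5 of the 9 genes, in 7 windows. The 7-base motif TCATGTG, searched on both strands, was present in 3 of these 7 windows, 1 each of Tyrp1, Tyr and Dct, and in 3.77% of all 32851 windows. The shorter CATGTG, which lies inside it, was present in 14.2% of all windows. The longer TCATGTGCT was present in 0.408% of all windows and in the same 3. CACGTG was in none of the 7 windows, against 7.15% of all. The stretches are given 5′ to 3′ on the strand of the gene, with the motif in capitals. Tyrp1 lies at chr4:80834121-80834212 on the plus strand, Tyr at chr7:87493513-87493579 on the minus strand and Dct at chr14:118052346-118052442 on the minus strand.
Tyrp1: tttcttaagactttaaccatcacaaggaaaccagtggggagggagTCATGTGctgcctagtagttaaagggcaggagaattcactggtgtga
Tyr: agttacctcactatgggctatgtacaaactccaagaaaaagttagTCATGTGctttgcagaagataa
Dct: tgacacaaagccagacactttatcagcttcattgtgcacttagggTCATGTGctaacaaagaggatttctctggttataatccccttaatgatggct
The first base of the motif lies 47 bases before the start in Tyrp1, 22 in Tyr and 151 in Dct. The Dct window holds 1 more match on the other strand. Of the 3 genes with this motif, Tyr was not above background, so its levels can show no pattern. Tyrp1 was lower after bright light in WT retinas, and Dct passed no test against 50 lux, as the levels below show. The part of the motif in these levels was not tested.

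Levels are the log2 of the intensities that the authors deposited, and the lowest deposited value, log2 2.21, fills between 30.9% and 31.5% of each array. A probe set was tested when it was above log2 4 on at least 2 arrays, and the brightest probe set of a gene stood for it. By that rule 5 of the 9 genes were tested (Ttr, Tyrp1, Mitf, Dct and Pmel) and 4 were not. Best1, Mlana and both Slc45a2 probe sets were listed at the lowest value on all 16 arrays. The brightest of the 3 Tyr probe sets ran from 2.21 to 2.58 over the arrays, and no group stood apart. The label of a pigment epithelium set is therefore borne by part of its members here: the channel gene Best1 and 3 melanosome genes gave no signal above background in any group. A level near background on an array does not show that the transcript is absent.

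**Figure D1:**
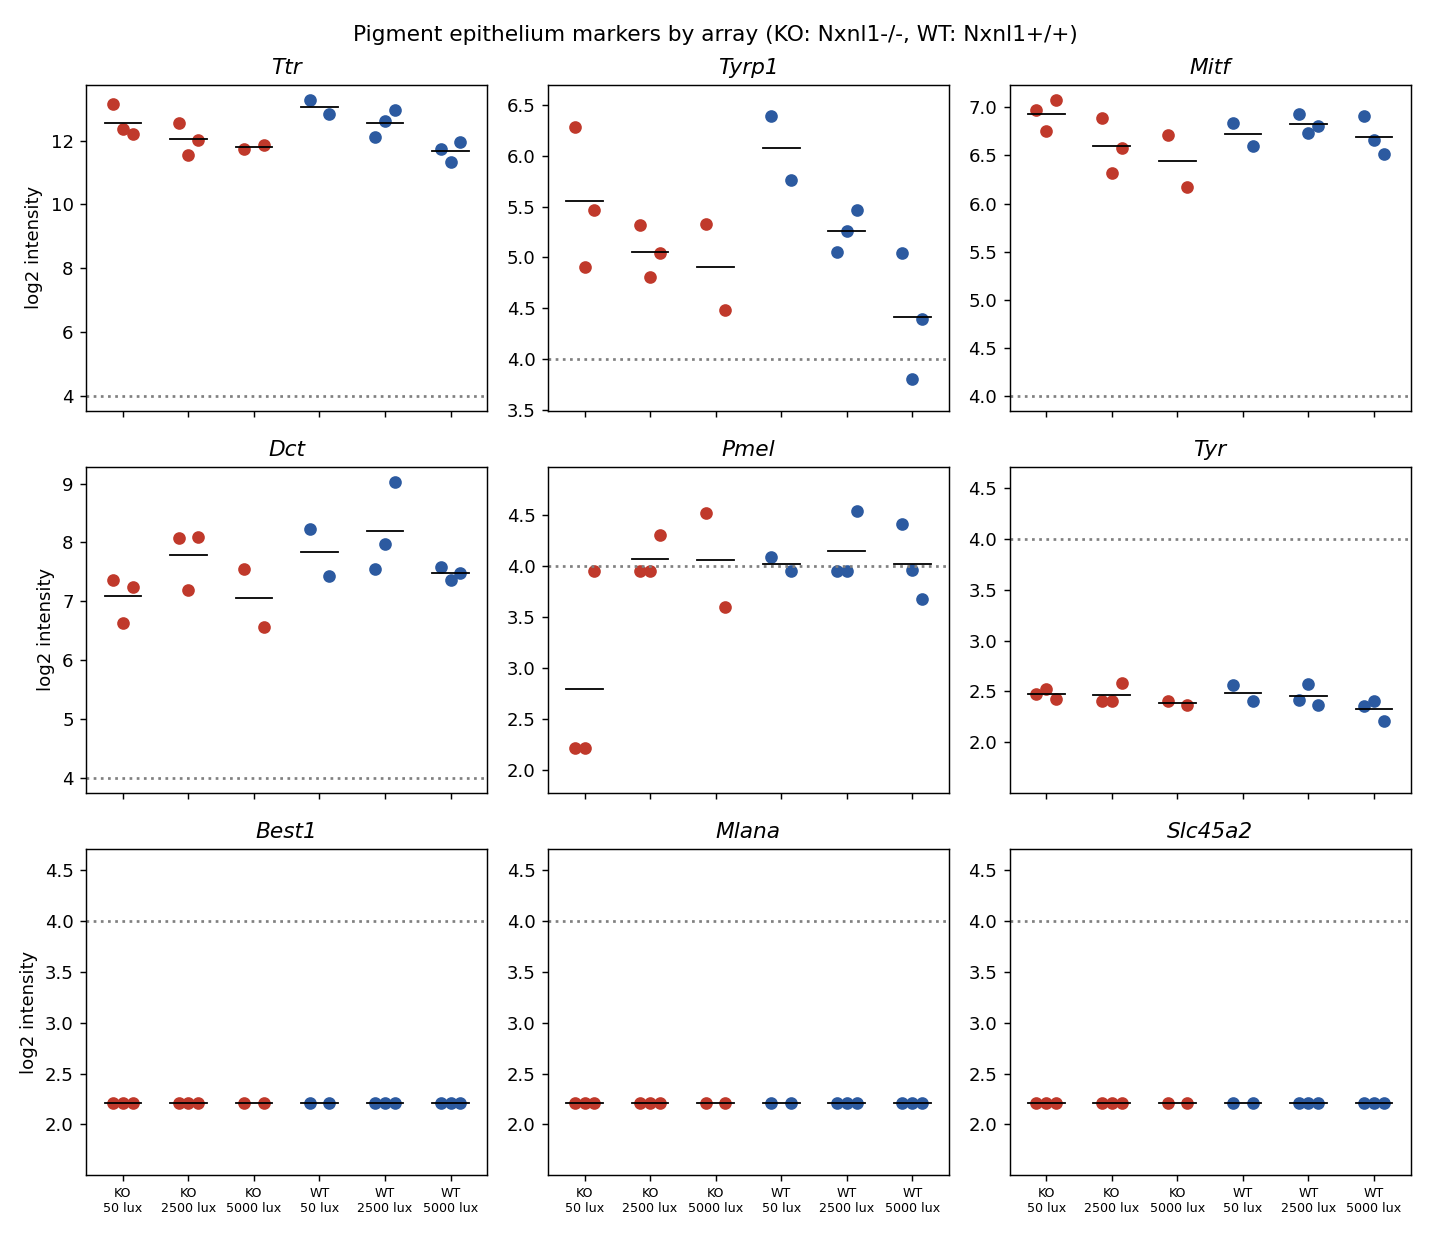
Log2 intensity of the 9 genes on each of the 16 arrays (points) with the group mean (line), KO groups in red on the left and WT groups in blue on the right; the dotted line is log2 4, and the vertical scales differ between panels. The highest arrays of Ttr and Tyrp1 are at 50 lux, Dct is highest on 1 WT array at 2500 lux (9.03), and Best1, Mlana and Slc45a2 stay at 2.21 on every array.

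After 5000 lux, Ttr and Tyrp1 fell in WT retinas, and Mitf, Dct and Pmel did not pass the test. Ttr was 2.61-fold and Tyrp1 3.17-fold lower than at 50 lux. In KO retinas the same 2 genes had lower means after bright light at both doses, and passed the test at neither. No member passed the test between genotypes at any dose.

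Ttr, the secreted carrier, had log2 levels of 11.73, 11.32 and 11.94 in WT retinas at 5000 lux, against 13.28 and 12.82 at 50 lux. All 3 exposed arrays lay below both arrays at 50 lux. The change was -1.38 with a standard error (SE) of 0.34 and an adjusted p of 0.018, taken from limma's moderated test with Benjamini-Hochberg adjustment over the 23320 probe sets tested. At 2500 lux WT retinas had 12.10, 12.62 and 12.95, which overlapped the 50 lux arrays (change -0.49, SE 0.34, adjusted p = 0.41).

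In KO retinas Ttr stood at 13.14, 12.35 and 12.20 at 50 lux, at 12.55, 11.54 and 12.02 at 2500 lux, and at 11.75 and 11.87 at 5000 lux. Both arrays at 5000 lux were below all 3 at 50 lux, and those at 2500 lux overlapped them. The changes against 50 lux were -0.53 (SE 0.30, adjusted p = 0.25) at 2500 lux and -0.76 (SE 0.34, adjusted p = 0.15) at 5000 lux. By group mean the order was WT 50 lux (13.05), KO 50 lux and WT 2500 lux (both 12.56), KO 2500 lux (12.03), KO 5000 lux (11.81) and WT 5000 lux (11.67), and every neighbouring pair in this order overlapped.

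The other 3 Ttr probe sets also fell in WT retinas at 5000 lux, and the 4 changes ran from -1.38 to -1.81 with adjusted p between 0.0064 and 0.018. They share 1 transcript and are not replicates. A pair of them, by the x in its Affymetrix name, is of the class whose probes may also match other sequences, and the smallest of the 4 changes is that of the probe set that stood for the gene.

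Tyrp1, the melanosomal enzyme related to tyrosinase, stood at 5.04, 3.80 and 4.39 in WT retinas at 5000 lux, against 6.39 and 5.76 at 50 lux. No array of the higher dose reached the lower of the 50 lux arrays. The change was -1.66 (SE 0.40, adjusted p = 0.018 in limma). At 2500 lux the WT levels were 5.05, 5.26 and 5.47, again all below both arrays at 50 lux, with a change of -0.81 (SE 0.40, adjusted p = 0.23).

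KO retinas had Tyrp1 at 6.28, 4.91 and 5.47 at 50 lux, at 5.32, 4.81 and 5.04 at 2500 lux, and at 5.33 and 4.48 at 5000 lux. The 3 KO groups overlapped one another, and the changes against 50 lux were -0.49 (SE 0.36, adjusted p = 0.37) at 2500 lux and -0.65 (SE 0.40, adjusted p = 0.30) at 5000 lux. By group mean the order was WT 50 lux (6.07), KO 50 lux (5.55), WT 2500 lux (5.26), KO 2500 lux (5.06), KO 5000 lux (4.91) and WT 5000 lux (4.41), with each neighbouring pair overlapping.

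The dimmer Tyrp1 probe set that was tested gave lower values in WT retinas at both doses. Its levels in WT retinas were 5.22 and 4.95 at 50 lux, 4.13, 4.30 and 4.44 at 2500 lux, and 4.13, 3.78 and 3.75 at 5000 lux. It fell by 0.80 on the log2 scale at 2500 lux (SE 0.19, adjusted p = 0.016) and by 1.20 at 5000 lux (SE 0.19, adjusted p = 0.0011). At 2500 lux the 2 Tyrp1 probe sets thus moved by nearly the same amount and lay on different sides of the threshold. In KO retinas its changes were -0.26 (SE 0.17, adjusted p = 0.31) and -0.46 (SE 0.19, adjusted p = 0.12). The third Tyrp1 probe set reached 4.34 on 1 array and was not tested.

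The count for WT retinas at 5000 lux was therefore 2 of 5 tested members, both lower, where 5.27% of the 10916 tested genes fell and 12.8% changed in either direction. At 2500 lux it was 0 of 5, against 5.13% falling and 14.1% in either direction. By the brightest probe set 0 of 5 had an unadjusted p under 0.05 there. Arrays that do not overlap between these groups are common: 47.3% of tested genes did not overlap at 5000 lux and 45.3% at 2500 lux. The medians over the 5 tested members were -0.36 at 5000 lux and 0.10 at 2500 lux, beside 0.00 and 0.04 over all tested genes.

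Both WT calls rest on few arrays. Without WT 50 lux replicate 1, Ttr changed by -1.16 (adjusted p = 0.19) and Tyrp1 by -1.34 (adjusted p = 0.20), and without WT 5000 lux replicate 2 by -1.21 and -1.36 (adjusted p = 0.060 for both). Replicate 2 at 5000 lux also had the highest summed signal of 12 lens genes in the series, 77348 in intensity units, against 2245 on the lowest of the other WT arrays at 5000 lux and between 813 and 987 on the WT arrays at 50 lux. On KO arrays the lens sum ran from 4049 to 12058 at 50 lux, from 3133 to 12937 at 2500 lux and from 2334 to 7491 at 5000 lux, so it also differed between the genotypes at 50 lux. On WT arrays at 2500 lux it ran from 2042 to 3336. The array with the most lens signal had the lowest Ttr of its group in KO retinas at 2500 lux (replicate 2, 11.54) and in WT retinas at 5000 lux (replicate 2, 11.32). It had the highest Ttr of its group in KO retinas at 50 lux (replicate 1, 13.14) and 5000 lux (replicate 2, 11.87). The same held in WT retinas at 50 lux (replicate 1, 13.28), and in WT retinas at 2500 lux it had neither. The lens signal's part in these values was not tested beyond leaving arrays out.

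Mitf had 1 probe set above log2 4, the other standing at 2.21 on every array after rounding, and its levels spanned a narrow range. In KO retinas they were 6.97, 6.75 and 7.08 at 50 lux, 6.89, 6.32 and 6.58 at 2500 lux, and 6.71 and 6.17 at 5000 lux. WT retinas had 6.84 and 6.60 at 50 lux, 6.93, 6.73 and 6.81 at 2500 lux, and 6.91, 6.66 and 6.52 at 5000 lux. Both KO arrays at 5000 lux lay below the 3 KO arrays at 50 lux, and every other exposed group overlapped its 50 lux arrays.

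The Mitf change in KO retinas at 5000 lux was -0.49 (SE 0.19, adjusted p = 0.11), and at 2500 lux it was -0.33 (SE 0.17, adjusted p = 0.20). In WT retinas it was -0.02 at 5000 lux, with a 95% interval from -0.44 to 0.40, and 0.10 at 2500 lux (interval -0.32 to 0.52). Mitf RNA thus showed no change past the test in the comparison in which Tyrp1 fell. The interval leaves room for a change of up to 0.44 downwards. The activity of the factor was not measured, and its part in the Tyrp1 change was not tested.

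Dct, which converts dopachrome in melanin synthesis, did not follow the fall of Ttr and Tyrp1 over the light groups. KO retinas had 7.37, 6.64 and 7.24 at 50 lux, 8.07, 7.19 and 8.09 at 2500 lux, and 7.55 and 6.56 at 5000 lux. WT retinas had 8.23 and 7.43 at 50 lux, 7.55, 7.98 and 9.03 at 2500 lux, and 7.58, 7.36 and 7.48 at 5000 lux. All exposed groups overlapped the 50 lux arrays of their genotype.

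The Dct changes against 50 lux were 0.70 (SE 0.38, adjusted p = 0.23) in KO and 0.35 (SE 0.43, adjusted p = 0.69) in WT retinas at 2500 lux. At 5000 lux they were -0.02 (SE 0.43, adjusted p = 0.98) in KO and -0.36 (SE 0.43, adjusted p = 0.69) in WT retinas. At 50 lux all 3 KO arrays lay below both WT arrays (change -0.75, SE 0.43, adjusted p = 0.42), where 36.4% of tested genes did not overlap between the genotypes.

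Pmel was close to background throughout, with 5 of 16 arrays above log2 4. It stood at 2.21, 2.21 and 3.95 in KO retinas at 50 lux, at 3.95, 3.95 and 4.31 at 2500 lux, and at 4.52 and 3.60 at 5000 lux. WT retinas had 4.09 and 3.95 at 50 lux, 3.95, 3.95 and 4.54 at 2500 lux, and 4.42, 3.96 and 3.68 at 5000 lux. The 2 KO arrays at 2.21, the lowest deposited value after rounding, stand apart, and the third KO array at 50 lux is level with the other groups.

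In KO retinas Pmel rose at 2500 lux by 1.28 in the fit (SE 0.40, adjusted p = 0.039), but all 3 arrays at 50 lux were at or below log2 4. With those arrays set to log2 4, the level at 2500 lux is at least 1.05-fold higher. This call was lost under 5 of the other settings tried and on leaving out 5 of the 6 arrays compared, with adjusted p between 0.053 and 0.14 where Pmel was still tested. At 5000 lux the fitted change in KO retinas was 1.27 (SE 0.45, adjusted p = 0.081). With the 50 lux arrays set to log2 4, the level at 5000 lux is at least 1.04-fold higher.

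In KO retinas the count of members called was thus 1 of 5 at 2500 lux, where 8.87% of tested genes rose and 22.4% changed in either direction. At 5000 lux it was 0 of 5, against 12.4% in either direction. By the brightest probe set 3 of 5 had an unadjusted p under 0.05 there (Ttr and Mitf lower, Pmel higher). The medians over the 5 tested members were -0.33 and -0.49, beside -0.08 and -0.09 over all tested genes. Ttr and Mitf did not overlap their 50 lux arrays at 5000 lux, as 39.9% of tested genes did not.

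**Figure D2:**
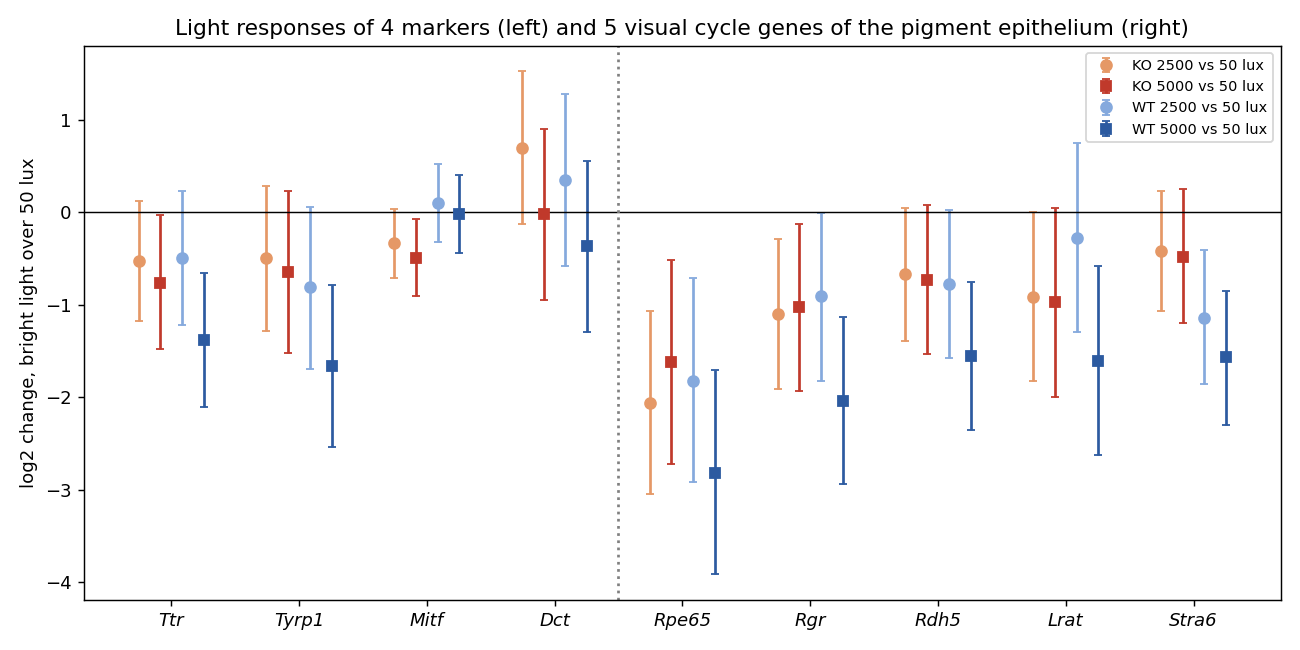
Log2 change of each bright-light group over the 50 lux arrays of its genotype, with the 95% interval of the limma fit, for 4 members (left of the dotted line) and 5 visual cycle genes of the pigment epithelium (right); circles are 2500 lux and squares 5000 lux, KO in red and orange and WT in blue. At 5000 lux in WT retinas Ttr (-1.38) and Tyrp1 (-1.66) lie near Rdh5 (-1.55) and Lrat (-1.61), Mitf (-0.02) and Dct (-0.36) lie nearer to 0, and Rpe65 (-2.82) lies lowest; Stra6 was at or below log2 4 on all bright-light arrays, so its fitted change is no size.

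Between the genotypes 0 of 5 tested members passed limma's test at 50, 2500 or 5000 lux, where 0.403%, 0.137% and 0.00916% of tested genes did. By the brightest probe set, Pmel at 50 lux was the only member with an unadjusted p under 0.05 in these comparisons (change -1.23, SE 0.45, adjusted p = 0.25). All 3 KO arrays were at or below log2 4 there, so Pmel was at least 1.01-fold lower. The dimmer Tyrp1 probe set had a smaller unadjusted p at 50 lux (limma, 0.00092). Ttr differed between KO and WT by -0.49 at 50 lux, by -0.52 at 2500 lux and by 0.14 at 5000 lux, with intervals that all held 0. Tyrp1 differed by -0.52, -0.20 and 0.49 at these doses, also within intervals that held 0. The dimmer Tyrp1 probe set was lower on all 3 KO arrays (4.24, 4.46 and 4.13) than on both WT arrays (5.22 and 4.95) at 50 lux, by -0.81 (interval -1.22 to -0.40, adjusted p = 0.11), and its changes between KO and WT at 2500 and 5000 lux were -0.28 and -0.07.

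The light response itself was compared between genotypes as an interaction. For Ttr the response at 5000 lux was 0.63 higher in KO than in WT retinas (SE 0.48, adjusted p = 0.70), and for Tyrp1 it was 1.02 higher (SE 0.57, adjusted p = 0.65). For the dimmer Tyrp1 probe set it was 0.74 higher at 5000 lux (SE 0.27, interval 0.16 to 1.32, adjusted p = 0.55) and 0.53 higher at 2500 lux (SE 0.26, adjusted p = 0.56). No member passed at either dose, 0 of 5 had an unadjusted p under 0.05 in limma by the brightest probe set, and 0.0366% of tested genes passed at 5000 lux and 0.0641% at 2500 lux. That Ttr and Tyrp1 passed in WT and not in KO retinas is therefore not shown to be a difference between the genotypes.

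Between 5000 and 2500 lux 0 of 5 members passed in either genotype, beside 0.119% of tested genes in KO and 0% in WT retinas. In WT retinas Ttr was lower at 5000 lux by 0.89 (change -0.89, SE 0.30, adjusted p = 0.58) and Tyrp1 by 0.85 (change -0.85, SE 0.36, adjusted p = 0.59), each with no overlap and an unadjusted p under 0.05. Of tested genes, 11.0% did not overlap between these 2 doses in WT retinas.

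A mean over both doses and genotypes was added after the values had been seen. In it Ttr fell by 0.79 (SE 0.20, adjusted p = 0.010) and Tyrp1 by 0.90 (SE 0.24, adjusted p = 0.014), while Mitf (-0.19, adjusted p = 0.25), Dct (0.17, adjusted p = 0.67) and Pmel (0.67, adjusted p = 0.079) did not pass. These 2 of 5 stand against 17.8% of tested genes that fell and 32.2% that changed in either direction. Without WT 50 lux replicate 1 neither passed (adjusted p = 0.078 and 0.10).

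Other genes of the same epithelium are given beside these values, because the labels do not record how much of that tissue stayed on each retina, and because fewer cells of a type and less RNA per cell cannot be told apart in bulk samples. The counts of each list from here on stand beside those over all 10916 tested genes. In KO retinas 968 of these rose and 1477 fell at 2500 lux, and 502 rose and 852 fell at 5000 lux. In WT retinas 975 rose and 560 fell at 2500 lux, and 825 rose and 575 fell at 5000 lux. Of the 8 visual cycle genes listed, which make and carry the chromophore, 7 were tested. In WT retinas at 5000 lux 6 of 7 fell and none rose, with a median of -1.57, or -1.55 with Stra6 at its bound: Stra6, the receptor gene of retinol-binding protein, was at or below log2 4 on all 3 arrays there and is at least 1.44-fold lower. In WT retinas at 2500 lux 3 fell and 1 rose, in KO retinas 2 fell and 1 rose at 2500 lux, and 1 fell at 5000 lux. The isomerase gene Rpe65 fell by 2.82 in WT retinas at 5000 lux (SE 0.51, adjusted p = 0.0031) and by 2.06 in KO retinas at 2500 lux (SE 0.46, adjusted p = 0.0067). Rlbp1, which Müller glia also make, fell in all 4 light comparisons.

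The summed intensity of these visual cycle genes ran from 5684 to 8150 on KO and from 8254 to 10030 on WT arrays at 50 lux. It ran from 3389 to 3974 on KO and from 4113 to 4671 on WT arrays at 2500 lux, and from 3412 to 3669 on KO and from 3148 to 3497 on WT arrays at 5000 lux. Rlbp1 makes up much of these sums. Over the 6 tested genes without it, the sum ran from 1808 to 3563 on KO and from 2913 to 3991 on WT arrays at 50 lux, from 1289 to 2121 on KO and from 1751 to 2670 on WT arrays at 2500 lux, and from 1443 to 1509 on KO and from 1176 to 1475 on WT arrays at 5000 lux. In WT retinas the sum without Rlbp1 was thus lower than at 50 lux on every array at 2500 lux, where Ttr overlapped its 50 lux arrays. Rdh10 is still in this sum and moved the other way. At 2500 lux it rose by 0.55 in KO and 0.46 in WT retinas (limma, adjusted p = 0.0021 and 0.02). At 5000 lux its changes were 0.26 in KO and 0.32 in WT retinas (limma, adjusted p = 0.15 and 0.11). The sum without Rlbp1 therefore understates the fall of the other visual cycle genes in it. The part of this signal in the changes of Ttr and Tyrp1 was not tested.

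A second list of 12 pigment epithelium genes of other functions (transporters, keratins and others) had 7 tested. In WT retinas at 5000 lux Rrh, a retinal-binding opsin, fell by 1.17 (SE 0.29, adjusted p = 0.019), the lactate transporter gene Slc16a8 fell by 1.37 (SE 0.37, adjusted p = 0.033), and the keratin gene Krt18 rose by 1.04 (SE 0.18, adjusted p = 0.0025). At 2500 lux 1 fell and 2 rose in WT retinas. In KO retinas 1 of 7 (Rrh) fell at 2500 lux and none passed at 5000 lux. Krt8, Ermn, Wfdc1 and Serpinf1 were at or below log2 4 on every array.

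Of 18 other melanosome and pigmentation genes, 12 were tested, and Oca2, Gpr143, Rab32, Mlph and Hps1 were at or below log2 4 on every array. In WT retinas at 5000 lux 3 fell and 1 rose, with a median of 0.05. Those that fell were Mc1r, the melanocortin receptor gene (-1.71, SE 0.23, adjusted p = 0.00029), Mreg (-0.43, adjusted p = 0.018) and Rab27a (-0.77, adjusted p = 0.022), which act in melanosome transport. At 2500 lux in WT retinas 2 fell and 1 rose, with a median of 0.05. In KO retinas 3 rose and 3 fell at 2500 lux, Mc1r by -2.89 (SE 0.21, adjusted p = 1e-06), and 1 rose and 3 fell at 5000 lux. Several of these genes have other known sites in retina: Trpm1 is the channel of ON bipolar cells, and Gpnmb is made by macrophages.

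Of the 9 genes that regulate Mitf or are related to it, 6 were tested. Otx2 and Crx, homeobox factors that photoreceptors also make, fell in WT retinas at 5000 lux by 0.40 (adjusted p = 0.029) and 0.46 (adjusted p = 0.018), and Tfe3, Tfeb, Pax6 and Sox9 did not pass in any of the 4 light comparisons. Of 5 genes listed for melanocytes of neural crest origin, Sox10 and Erbb3 were at or below log2 4 on every array, and 3 were tested. Ednrb ran from 5.98 to 9.91 over the arrays. It rose in WT retinas by 2.16 at 2500 lux (adjusted p = 0.00034) and by 2.35 at 5000 lux (adjusted p = 0.00016). In KO retinas at 2500 lux it rose by 3.58 (adjusted p = 1.3e-06). Kit ran from 3.70 to 4.77, and Mc1r is given above. In each of the 4 light comparisons 1 of these 3 rose and 1 fell. At or below log2 4 on every array were also 6 of 8 stroma genes of choroid and sclera (Col1a1, Col3a1, Dcn, Lum, Pecam1 and Cdh5). The same held for Optc, Msx1 and Wfdc1 of the 6 ciliary body and iris genes. The other 3 were tested: Aqp1, Zic1 (from 5.63 to 7.45 over the arrays) and Slc4a5 (from 7.04 to 7.77). Zic1 and Slc4a5 passed in none of the 4 light comparisons. The summed intensity of the choroid and sclera list ran from 93.1 to 169 over the arrays. Its endothelial gene Plvap fell in KO retinas at 2500 lux (-0.61, adjusted p = 0.041) and at 5000 lux (-0.84, adjusted p = 0.025), and did not pass in WT retinas. Aqp1, a water channel gene of the ciliary epithelium among other cells, fell in KO retinas by 1.68 at 2500 lux (adjusted p = 0.00012) and by 0.86 at 5000 lux (adjusted p = 0.036), and changed by -0.75 (adjusted p = 0.061) and -0.54 (adjusted p = 0.19) in WT retinas. Their part in the member values was not tested.

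Markers of cells inside the retina moved in the same comparisons. Of 12 tested rod genes 10 fell at 2500 lux and 6 at 5000 lux in KO retinas, 7 fell at each dose in WT retinas, and none rose. Of 8 Müller glia genes 2 rose and 3 fell in KO retinas at 2500 lux, 2 rose and 2 fell at 5000 lux, and 3 rose and 3 fell in WT retinas at each dose. Of 5 tested microglia and macrophage genes 3 rose and 1 fell in KO retinas at 2500 lux, and 2 rose in each of the other light comparisons. Their summed intensity ran from 301 to 401 on KO and from 234 to 245 on WT arrays at 50 lux, from 2719 to 3071 on KO and from 1428 to 2978 on WT arrays at 2500 lux, and from 1385 to 1797 on KO and from 1789 to 2433 on WT arrays at 5000 lux. Aif1, Itgam and Ptprc were at or below log2 4 on every array. The part of these cells in the member values, Mitf included, was not tested.

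Within 1 array a factor common to all transcripts of 1 tissue cancels in the difference of their log2 levels, so such differences were compared between the 11 bright-light arrays and the 5 arrays at 50 lux. The 26 comparisons were chosen after the values had been seen. Each used an exact two-sided permutation test within genotype over 1568 splits, with a smallest possible p of 0.00064, and Benjamini-Hochberg adjustment over the 26. The level of 1 probe set is not set against that of another here, only the shift of their difference with light.

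Averaged over the genotypes, the difference of Ttr and Tyrp1 shifted by 0.12 (exact permutation, adjusted p = 0.64), between 0.05 and 0.22 when 1 array was left out. Its mean went from 7.01 at 50 lux to 6.95 after bright light in KO retinas, and from 6.97 to 7.27 in WT retinas. Tyrp1 shifted against Dct by -1.10 (exact permutation, adjusted p = 0.0028), with differences from -3.56 to -2.08 on bright-light arrays and from -1.84 to -1.09 on 50 lux arrays, which do not overlap. Ttr shifted against Dct by -0.98 (exact permutation, adjusted p = 0.0037) and against Mitf by -0.60 (adjusted p = 0.073), and Tyrp1 shifted against Mitf by -0.72 (adjusted p = 0.036). Mitf against Dct gave -0.38 (adjusted p = 0.28). The pairs with Dct were chosen knowing that Tyrp1 and Ttr were lower after bright light and Dct was not, so these differences restate the changes given above, array by array, and are no separate evidence. Tyrp1 was also close to background on some bright-light arrays (3.80 on WT 5000 lux replicate 2).

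Set against the visual cycle genes, and averaged over the genotypes, Ttr and Tyrp1 moved most like Rdh5 and Lrat. Ttr shifted by 0.15 against Rdh5 (exact permutation, adjusted p = 0.33) and by 0.16 against Lrat (adjusted p = 0.37), and Tyrp1 by 0.03 against Rdh5 and 0.04 against Lrat (adjusted p = 0.91 for both). The Tyrp1 shifts are means of opposite signs. Tyrp1 minus Lrat went from 0.01 at 50 lux to 0.39 after bright light in KO retinas, and from 0.17 to -0.12 in WT retinas. Tyrp1 minus Rdh5 went from -2.12 to -1.99 in KO and from -2.18 to -2.26 in WT retinas. A shift that did not pass is not shown to be absent. Rpe65 moved apart from all 4 members: Ttr shifted against it by 1.32, Tyrp1 by 1.20, Mitf by 1.92 and Dct by 2.30 (exact permutation, adjusted p = 0.0028 for each, the smallest p the splits can give before adjustment). Ttr shifted by 0.49 against Rgr (adjusted p = 0.0028), with differences from 2.84 to 3.37 on bright-light arrays and from 2.46 to 2.72 on 50 lux arrays. Dct shifted upwards against Rgr by 1.47, against Rdh5 by 1.13 and against Lrat by 1.14, with adjusted p of 0.0037, 0.0037 and 0.0075.

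These differences have their own limits. The pairs with visual cycle genes were also chosen after the changes of each gene had been seen. Shifts against Rpe65 and Rgr, and those of Dct, thus restate these changes and are no separate evidence. How much pigment epithelium stayed on each retina was not tested by them. Probe sets respond with different slopes: the 4 Ttr probe sets of 1 transcript changed by -1.38 to -1.81 in WT retinas at 5000 lux. In the mean over doses and genotypes they changed by -0.79 to -1.13. How far slopes differ between probe sets of different genes was not measured, so these spreads set no limit for the shifts above. The 4 differences with Stra6 are not read, because Stra6 was at or below log2 4 on all 11 bright-light arrays.

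**Figure D3:**
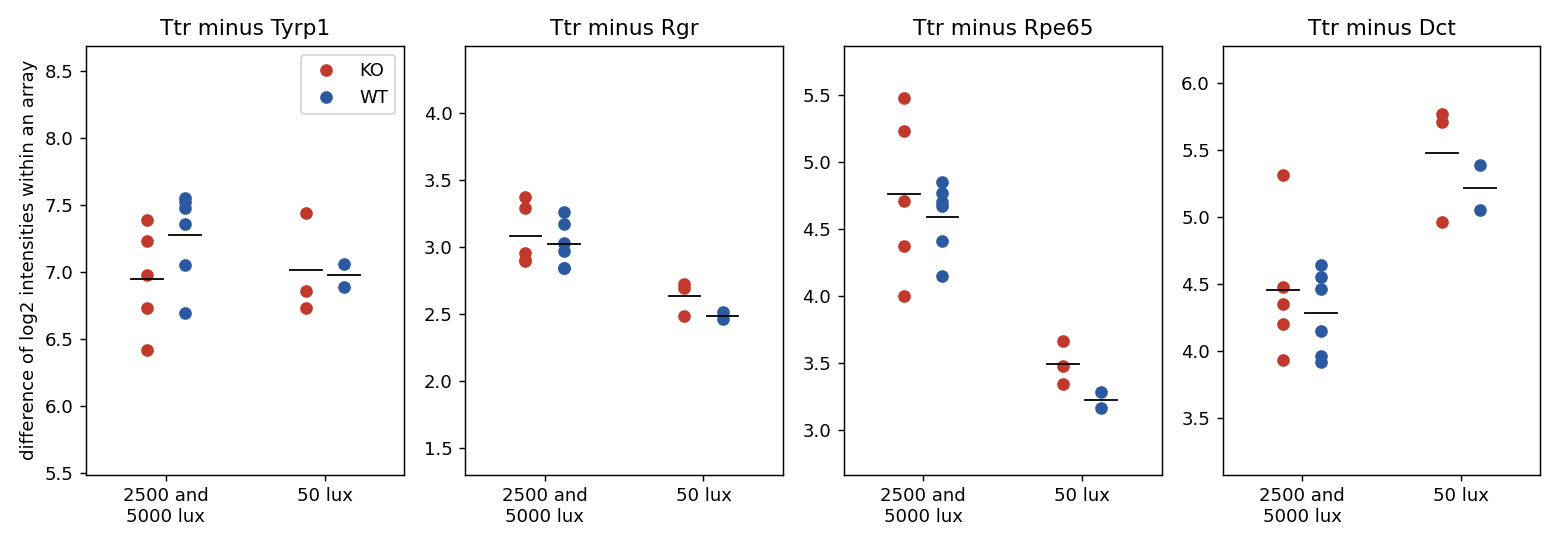
Difference of log2 intensities within an array (vertical axis, each panel spanning the same number of log2 units) between Ttr and 4 other genes, for 2500 and 5000 lux together on the left of each panel and 50 lux on the right, KO in red and WT in blue with group means as lines. The difference from Tyrp1 overlaps between the doses, those from Rgr and Rpe65 are higher on every bright-light array, and that from Dct is lower on average by 0.98.

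Across the 16 arrays Ttr was most like visual cycle genes of the same epithelium. This ranking of single members was added after the values had been seen, and it is a description over arrays that share the light groups. Its highest Pearson r among tested genes were with Rgr (0.98), Lrat (0.97) and Rdh5 (0.94), followed by Pon1 (0.93), and r was 0.88 with Rpe65, 0.85 with Tyrp1, 0.46 with Dct and 0.43 with Mitf. Tyrp1 was most like Tlcd4 (0.89), Pltp and Rgr (both 0.87). Dct was most like Slc26a7, which is on the second list of pigment epithelium genes, and Patj (both 0.75). Mitf was most like Hs3st4 (0.88) and Cbr1 (0.87). With the group means removed, r of Ttr was 0.98 with Rgr, 0.96 with Mt1 and with Sema3c, and 0.95 with Lrat. It was 0.66 with Tyrp1, 0.65 with Dct and 0.26 with Mitf, and r of Tyrp1 with Dct was 0.69. Within groups Dct thus varied with Ttr about as much as Tyrp1 did. Neither was among the genes nearest to Ttr: by r with Ttr among tested genes, Tyrp1 ranked 377 and Dct 431. By r with Tyrp1, Dct ranked 1082 and Ttr 1332, and the nearest gene was Atg14 (0.94).

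The mean of the 5 tested members, each centred and scaled over the arrays, was most like Slc16a9 (r = 0.78 over 16 arrays), Zscan12, Ptgds, Letm2 and Iqgap2 (0.75 each), Hdgfl3 (0.74), Sema3c (0.73), and Dtd2, Zcchc12 and Pld2 (0.72 each). With the group means removed it was most like Vwa5a, Ccs, Cyb561d2, Otulin, Cox19, Chic1 and Snx4 (0.89 each), Dpagt1 and Noc4l (0.88 each) and Csnk1g2 (0.86). None of the genes of either ranking is on the lists of pigment epithelium or melanosome genes, whereas Ttr alone was nearest to 3 of them.

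**Figure D4:**
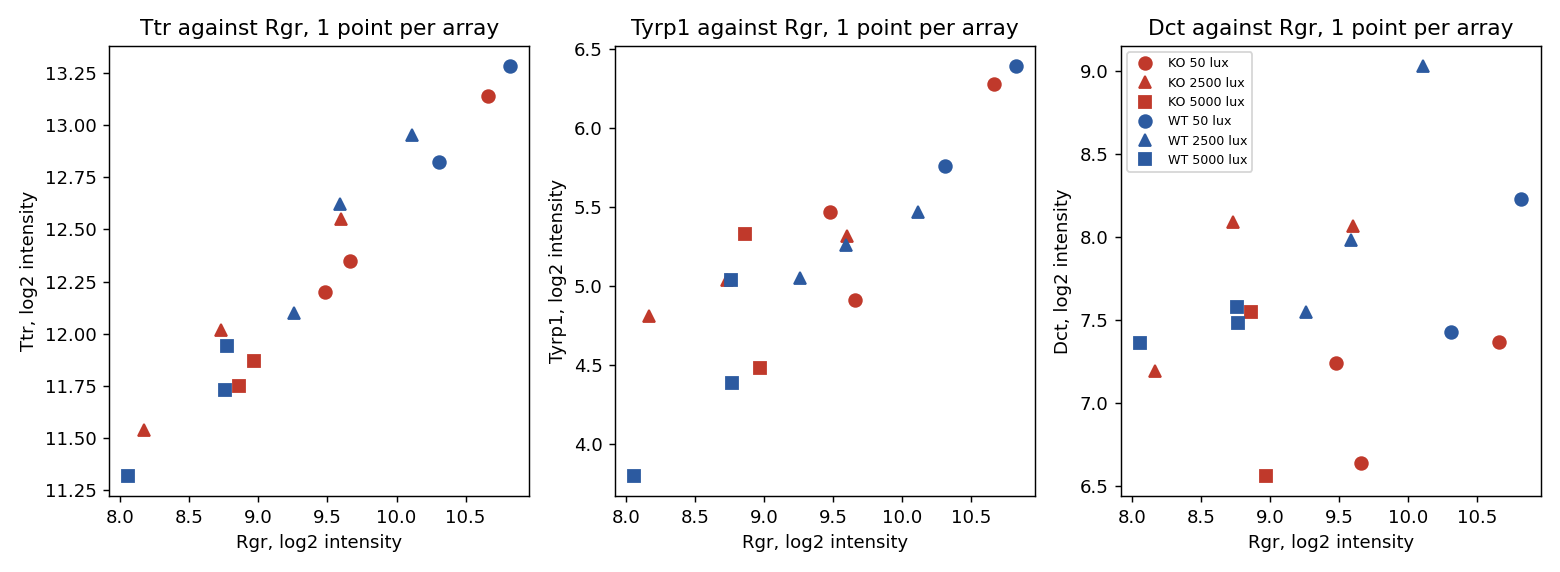
Log2 intensity of Ttr, Tyrp1 and Dct (vertical axes) against that of the visual cycle gene Rgr (horizontal axis), 1 point per array, KO in red and WT in blue, with circles for 50 lux, triangles for 2500 lux and squares for 5000 lux. Ttr lies close to 1 line over all 16 arrays (r = 0.98), Tyrp1 follows more loosely (r = 0.87), and for Dct the array with the highest level is at 2500 lux and not at 50 lux.

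Among the 11 bright-light arrays alone, some pairs also varied together. The permutations shuffled these arrays without regard to genotype and dose, so r, rho and p also hold differences between the groups. In WT retinas the means at 2500 and 5000 lux were 12.56 and 11.67 for Ttr, and 8.02 and 7.02 for Rpe65. Ttr and Rpe65 had a Pearson r of 0.80 and a Spearman rho of 0.80 (permutation, 100000 resamples, p = 0.0037 and 0.0049, adjusted over 10 pairs 0.028 and 0.025), and r was 0.76 without the 2 arrays farthest from the median of Ttr. Ttr and Dct had r = 0.76 and rho = 0.72 (permutation p = 0.0056 and 0.015, adjusted 0.028 and 0.031), which dropped to r = 0.51 without 2 arrays. Over the 6 WT arrays among them r was 0.91 for Ttr with Rpe65 and 0.87 for Ttr with Dct. Tyrp1 and Dct had r = 0.63 and rho = 0.73 (permutation p = 0.042 and 0.013, adjusted 0.060 and 0.031), and r was 0.86 without the 2 arrays farthest from the median of Tyrp1. For Ttr and Tyrp1 r was 0.70 and rho 0.68 (permutation, adjusted p = 0.05 and 0.042). They were 0.68 and 0.80 for Tyrp1 and Rpe65 (adjusted p = 0.05 and 0.025). For Mitf and Rpe65 they were 0.64 and 0.75 (adjusted p = 0.06 and 0.031). For Ttr and Mitf r was 0.41 (permutation p = 0.22). Mitf and Dct (r = 0.63), Dct and Rpe65 (0.56) and Tyrp1 and Mitf (0.49) passed by neither r nor rho after adjustment. The 5 KO arrays are too few for a value of their own. The relation of Ttr with Rpe65 held without the farthest arrays, and that with Dct rested in part on them.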

How the data were processed

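Affymetrix 3' arrays, 1 per sample, were compared. The authors deposited linear intensity values, made with GCRMA per the submitters' processing notes; no version or setting of it is named there. Gene names come from the platform annotation: 34945 of 45037 probe sets had 1 symbol, 932 several and 9160 none. Log2 was taken with no pseudocount. Array medians ran from 15.3 to 15.8 on bright-light arrays and from 14.4 to 15.1 at 50 lux; precision is set by how many arrays a group has. Probe sets above log2 4 on at least 2 arrays (23320, covering 10916 genes) were fitted in limma 3.58.1 (R 4.3.3), with 6 group means on all 16 arrays and 10 residual degrees of freedom; contrasts were adjusted by Benjamini-Hochberg, threshold 0.05. The fit was tested on simulated data. Permutations were run in Python 3.11.15, and r and rho among the bright-light arrays were taken with scipy 1.17.1. Group values are not paired. For a group wholly at or below log2 4, arrays were set to log2 4 and the fold given as a lower bound. All members were named, with up to 3 genes of each other list by smallest p, genes with a bearing on a count, and the 10 genes most like the members. Members and lists were chosen with earlier results of these data known. Alternatives were quantile normalization, other filters, an offset, all probe sets averaged, array weights, a trended prior, only the arrays compared, a replicate block and leaving out each array.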

Additional observations from a re-analysis of the deposited data

How the results depend on the processing

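No result that passed its test turned round under any setting. With no filter on low values the count of members called was 0 in WT retinas at 5000 lux, 0 in KO retinas at 2500 lux and 1 in the mean over doses and genotypes. With only the arrays of the groups compared it was 1 (Ttr) in WT retinas at 5000 lux and 0 in KO retinas at 2500 lux, where it was also 0 with quantile normalization, a filter of log2 above 6, which leaves Pmel untested, and an offset of 16. With the replicate number as a block (replicate block) it was 2 in KO retinas at 5000 lux, against 0 without it: Mitf changed by -0.50 (adjusted p = 0.026) and Pmel by 1.45 (adjusted p = 0.030). Same-numbered arrays of different groups correlated with a median r of 0.17 over 36 pairs (from -0.24 to 0.69; 21 over 0.1), and arrays of other numbers with a median of -0.11 over 70 pairs (13 over 0.1). Same-numbered arrays thus deviated together more often, but not in every pair, and the labels name no shared animal or day, so the arrays were not treated as paired. Leaving out 1 array gave counts from 0 to 2 in WT retinas at 5000 lux, from 0 to 1 in KO retinas at 2500 and at 5000 lux and between the genotypes at 50 lux, and from 0 to 3 in the mean over doses and genotypes. The 5000 lux count in WT retinas was 0 without WT 50 lux replicate 1 or WT 5000 lux replicate 2, and 1 without WT 50 lux replicate 2 or WT 5000 lux replicate 3. In KO retinas at 5000 lux Pmel passed without KO 50 lux replicate 3 (1.85, adjusted p = 0.0045) and Mitf without KO 5000 lux replicate 1 (-0.77, adjusted p = 0.032). Pmel also passed between the genotypes at 50 lux without KO 50 lux replicate 3 (-1.81, adjusted p = 0.035). All KO arrays at 50 lux were at or below log2 4 for Pmel, and without replicate 3 both stood at 2.21. These fitted Pmel changes, and that with the replicate block, are therefore no sizes. Other counts of members stayed within 1.5 times. The number of probe sets called in WT retinas at 5000 lux was 2447, and from 1025 to 5512 under the alternatives; in KO retinas at 2500 lux it was 4501 (2471 to 6791), and at 5000 lux 2663 (182 to 4613). Groups of 2 arrays and signal near background (Pmel, the second Tyrp1 probe set) limit these results; causes of the lost calls were not tested beyond these settings.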
